A study of Mus musculus with 9 samples.

Results

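The retina of PBS-injected mouse eyes was described from 3 arrays, which are all the arrays of the PBS group and 3 of the 9 retina arrays of the series. They were chosen by their titles, so no measured value took part in the choice. Adult male C57BL/6 mice received phosphate-buffered saline (PBS), a salt solution that served as negative control, by intravitreal injection, that is, into the gel-filled space behind the lens of the right eye. The labels word a dose of 1 µM for PBS as for the peptides AAP and HAN, which were given to the other groups of mice and are not compared here. The retinas were taken 7 days later. The group held 12 mice, and 4 retinas were pooled for each array, so each value below is that of a pool and not of a mouse. The pools are called PBS 1, PBS 2 and PBS 3. The single arrays of the pools allow no test between them, and every comparison below is a description of these 3 pools. An eye without injection was not among the samples used here, so the values describe a retina after an injection.

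The retina is a layered sheet of neurons at the back of the eye. Rod photoreceptors, which are the most numerous cells in the mouse retina, and cone photoreceptors detect light through opsins that activate transducin and a phosphodiesterase. Their signal passes through bipolar cells, with horizontal and amacrine cells as interneurons, to ganglion cells, whose axons form the optic nerve, and Mueller glia span all layers. In dissection the retina is separated from the lens, the iris and ciliary body, the pigment epithelium and the tissues of the eye wall, so transcripts of these tissues can be carried along.

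Each array carried 44397 spots, of which 43020 were not controls, and 75.2% to 79.2% of the spots were well above background by the scanner software's own call. No spot was saturated. Values are log2 processed signal minus the 75th percentile of the array, so 0 is the signal at that percentile and 1 unit is a 2-fold difference. Of 32482 genes, 23634 were well above background in all 3 pools, 6703 in none and 2145 in some. All 3 arrays sat on 1 slide with 1 scan time. Across genes, which are not independent replicates, the pools correlated closely, with a Pearson's r of 0.990 between PBS 1 and PBS 2, 0.995 between PBS 1 and PBS 3 and 0.995 between PBS 2 and PBS 3. The precision is limited by the number of arrays, and in bulk tissue fewer cells of a type and less RNA per cell cannot be told apart.

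The label retina was set against the 5 defining markers and was borne out in each pool. Sag, the rod arrestin that ends the light response, stood at 6.18, 6.53 and 6.51 in PBS 1, PBS 2 and PBS 3. Gnat1, the alpha subunit of rod transducin, stood at 7.50, 7.70 and 7.61. Both rod genes were lowest in PBS 1 and lay within 1.28-fold (Sag) and 1.14-fold (Gnat1) over the pools. Glul, the glutamine synthetase of Mueller glia, stood at 4.97, 4.87 and 4.95. Nefl, the light neurofilament chain of ganglion cell axons, stood at 3.76, 3.79 and 3.92. Grm6, the glutamate receptor of ON bipolar cells, stood at 2.92, 3.03 and 3.04. The pools differed little in these 3 genes, by 1.07-fold, 1.12-fold and 1.09-fold between highest and lowest. All 4 genes of the Y chromosome on the lists (Eif2s3y, Ddx3y, Uty and Kdm5d) were well above background in all 3 pools and Xist in none, as the labelled sex of the mice has it.

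The brightest signals came from a mixture of retinal genes, glycolytic enzymes and genes whose probes disagreed. A gene was represented by its brightest probe. Probes bind with different strength, so the order below is one of probe brightness, which is not an order of transcript abundance. The 30 brightest named genes had means from 8.17 to 7.08, with the next gene at 7.06. Of the 30, 6 were rod genes: Rom1 (7.41, 7.69 and 7.72 in the 3 pools) and Prph2 (7.33, 7.55 and 7.56), which hold the rims of the outer segment discs, Gnat1, the rod transcription factor Nrl, Unc119, which carries transducin, and Pde6g, the inhibitory subunit of the rod phosphodiesterase. The glycolytic enzymes Gapdh (7.66, 7.76 and 7.81) and Aldoa (7.64, 7.76 and 7.79) were also among them, as was the lens crystallin Cryaa. Cryaa stood at 8.14, 5.34 and 8.12, and PBS 2 was low. It was 1 of the 30 to range over 2-fold, and the largest range among the other 29 was 0.33.

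The name of several of the brightest genes rested on a single probe that the gene's other probes did not bear out. The brightest of all was the only probe of Exosc2, a subunit of the RNA exosome, at 8.10, 8.17 and 8.24. F10, the coagulation factor X, had 1 probe with a mean of 8.14 and another with a mean of -5.49. Elk1, a transcription factor, had probes at 8.14 and -4.22. Slc10a1, the bile acid transporter known from liver, had a probe at 8.12 and another at -7.67 that was not well above background in all 3 pools. Of the 30 genes, 11 had 1 probe and 19 had several. The next probe was within 2-fold in 4 (among them Prph2, Nrl and Gapdh) and over 32-fold lower in 12. Over all 5287 genes with several probes, the dimmest probe was over 32-fold below the brightest in 15.9%. The median gap between these was 2.49 on the log2 scale. This gap reaches to the dimmest probe, so it can be larger than that to the next probe. The 30 genes were chosen by their brightest probe, and this choice itself favours large gaps, so the 2 shares are not alike. The brightest probe was then replaced by the mean of the gene's probes that were well above background in all 3 pools. With this mean 22 of the 30 remained among the brightest 5% of genes, and F10 was at percentile 81.5 and Elk1 at percentile 86.3. Slc10a1 kept its value of 8.12, because its other probe was left out of the mean. The plot of all probes of the 30 brightest genes shows which names rest on probes that lie apart.

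**Figure D1:**
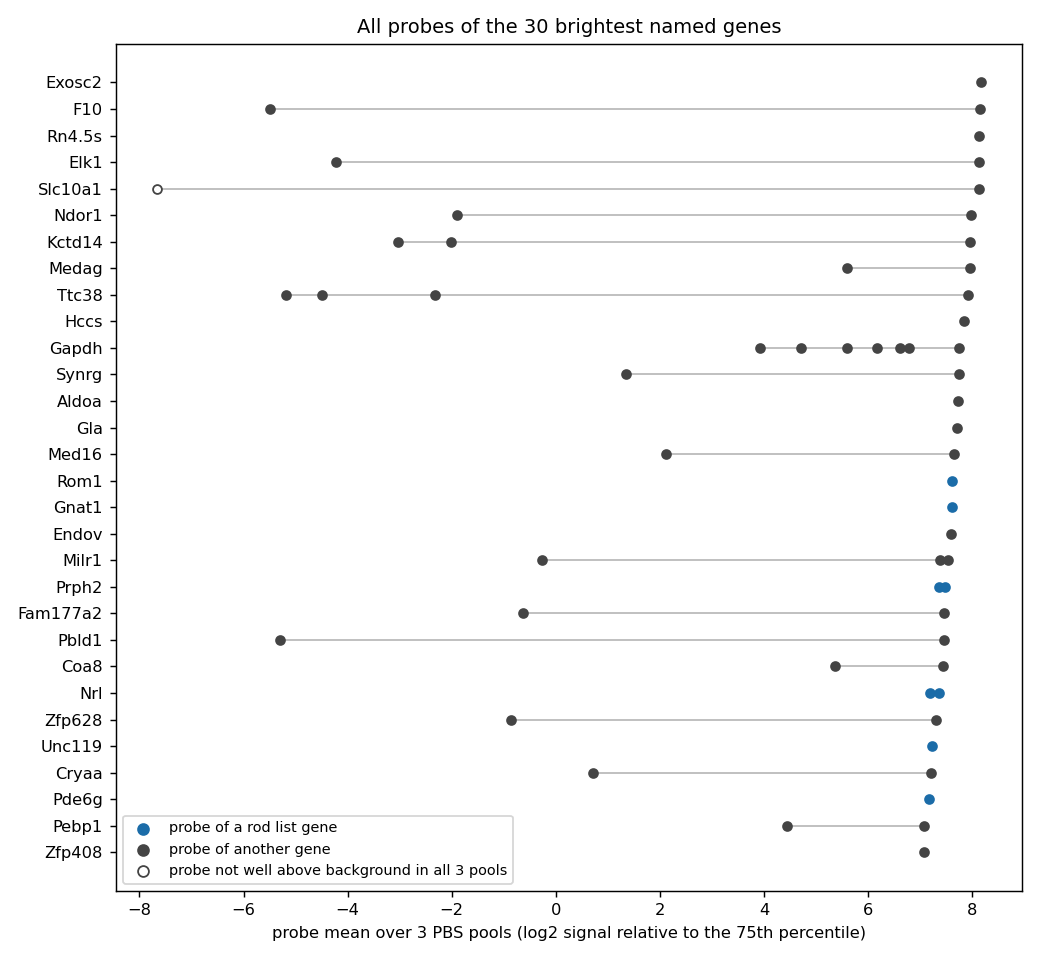
Mean over the 3 PBS pools of every probe of the 30 brightest named genes, in log2 signal relative to the array's 75th percentile (x axis), 1 gene per line (y axis). Blue points are probes of rod genes, dark points those of other genes, and open points were not well above background in all 3 pools. The probes of Prph2 and Nrl lie together, while those of F10, Elk1 and Slc10a1 lie over 12 units apart.

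Rod genes led the cell types by brightness. All 30 rod genes were well above background in all 3 pools, and 22 of them (against 5% of all genes by construction) lay among the brightest 5%; the median member was at percentile 98.8. Beside the genes named above, Gngt1, the gamma subunit of rod transducin, stood at 6.65, 6.96 and 6.92. Pdc, which binds transducin subunits (6.60, 6.85 and 6.79), and Rcvrn, the calcium sensor recoverin (6.61, 6.84 and 6.74), were as bright. The dimmest rod gene was Gucy2e, a guanylate cyclase, at -0.46, -0.12 and -0.33, which was percentile 60.3. The rod transcription factor Crx stood at 2.29, 2.51 and 2.67. PBS 1 was the lowest pool in each of these genes.

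Promoters of rod genes are known to bind Crx and related homeodomain factors through TAATCC, so this motif was searched on both strands in the 250 bases before each RefSeq start. It was found in 41.7% of 24 promoters of 21 matched rod genes, against 6.25% of all 32851 promoters. A match is a description of the letters, and binding was not measured. The 160 bases before the start of Sag and of Gngt1 are shown as examples from the brightest rod genes, with the match in capitals. They are RefSeq sequences of build GRCm38.p6, 5′ to 3′ along the gene, both on the plus strand, at chr1:87803520-87803679 for Sag and chr6:3993848-3994007 for Gngt1.
Sag: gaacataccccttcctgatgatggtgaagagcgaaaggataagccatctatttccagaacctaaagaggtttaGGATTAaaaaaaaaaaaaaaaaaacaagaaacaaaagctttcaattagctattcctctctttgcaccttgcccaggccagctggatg
Gngt1: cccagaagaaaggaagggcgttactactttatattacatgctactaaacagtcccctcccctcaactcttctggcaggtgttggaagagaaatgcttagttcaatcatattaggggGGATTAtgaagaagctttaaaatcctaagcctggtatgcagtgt

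Cone genes were dimmer than rod genes as a list, with a median at percentile 85.4 and 4 of 15 among the brightest 5%. Those 4 were Pde6h (4.83 ± 0.24, SD, n = 3) and Gngt2 (4.57, 4.88 and 4.79), the cone counterparts of the phosphodiesterase and transducin gamma subunits, Gnat2, the alpha subunit of cone transducin (4.17, 4.43 and 4.33), and Arr3, the cone arrestin (4.10, 4.39 and 4.43). Opn1mw, the green-sensitive cone opsin, stood at 3.30, 3.46 and 3.74. Opn1sw, the short-wavelength cone opsin, stood at -1.21, -0.64 and -1.92, with PBS 3 lowest.

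Bipolar and amacrine cells gave bright signals in part. Of 17 genes of rod and ON bipolar cells, 5 lay among the brightest 5%, with a median at percentile 90.7. Pcp2 (5.11, 5.30 and 5.25), which is known from rod bipolar cells, and Cabp5, a calcium-binding protein of bipolar cells (4.87, 4.94 and 4.85), led them. Prkca, the protein kinase C that marks rod bipolar cells, stood at 3.81, 4.05 and 4.02. OFF bipolar genes had a median at percentile 64.2 over 11 of 12 measured. Of 20 amacrine genes 2 lay among the brightest 5%: Slc6a9, the glycine transporter (4.63, 4.61 and 4.73), and Slc32a1, which loads GABA and glycine into vesicles (3.95, 4.18 and 4.24). Th, the tyrosine hydroxylase of the sparse dopaminergic amacrine cells, stood at 0.24, 0.28 and 0.29.

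Horizontal and ganglion cell genes were the dimmest neuron lists, with medians at percentile 27.6 (5 genes) and percentile 56.5 (20 genes). None of either lay among the brightest 5%. Of the horizontal cell genes, Calb1, the calcium buffer calbindin, stood at -3.29, -3.42 and -3.37, and the homeodomain gene Lhx1 at -3.93, -4.08 and -4.07. Thy1, a surface protein of ganglion cells, was the brightest ganglion cell gene at 3.98, 3.87 and 4.10. Pou4f2, a transcription factor of ganglion cells, stood at -0.96, -1.29 and -0.90, and Opn4, the photopigment melanopsin of a minority of them, at -3.81, -4.20 and -3.95. All of these genes varied by less than 0.40 over the pools.

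Mueller glia genes were bright, with a median at percentile 90.1 and 6 of 22 among the brightest 5%. Clu, the secreted chaperone clusterin, stood at 6.93, 6.50 and 6.76. Apoe, the lipid carrier apolipoprotein E, stood at 5.64, 5.42 and 5.80. Dkk3, a secreted protein of the Dickkopf family, stood at 5.57, 5.28 and 5.60. PBS 2 was lowest in these 3 genes. The channels Aqp4, for water (1.27, 1.36 and 1.20), and Kcnj10, for potassium (1.72, 1.90 and 1.76), were dimmer. Gfap, the intermediate filament of astrocytes and reactive Mueller glia, stood at -0.78, -1.44 and -0.68.

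Microglia, endothelial and oligodendrocyte genes lay near the middle of the brightness range, and pigment epithelium genes above it. Microglia and macrophage genes had a median at percentile 57.9 over 20 of 21 genes on the array. Cx3cr1, the fractalkine receptor, stood at -0.43, -0.35 and -0.35. The list's brightest gene, the integrin Itgam, rested on 1 probe (5.51, 5.49 and 5.28), while its other probes had means of -3.79 and -4.50. Endothelial genes had a median at percentile 51.8, led by the glucose transporter Slc2a1 (3.74, 3.28 and 3.42) and by Kdr (2.70, 2.73 and 2.64) and Flt1 (2.35, 2.32 and 2.44), the VEGF receptors. Pigment epithelium genes had a median at percentile 75.6 over 13 genes, 3 of them among the brightest 5%, and Rpe65, the retinoid isomerase of the pigment epithelium, stood at 1.89, 1.85 and 1.75. Oligodendrocyte genes had a median at percentile 48.5. The myelin gene Mbp stood at 1.24, 1.25 and 1.21, and Olig1, Olig2 and Opalin were not well above background in any pool.

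Genes of protein synthesis and energy supply were nearly as bright as rod genes. Of 30 ribosomal protein and translation genes, 26 lay among the brightest 5%, with a median at percentile 98.6 and Rps14 at the top (6.70, 6.90 and 7.01). Of 21 genes of glycolysis 13 did, with a median at percentile 97.7. Ldha, the lactate dehydrogenase, stood at 6.85, 7.03 and 7.08, and Hk1, a hexokinase, at 5.76, 6.10 and 5.93. Of 29 genes of oxidative phosphorylation 19 did, led by Cox6a1 (6.40, 6.49 and 6.53) and Atp5b (6.34, 6.51 and 6.55), subunits of cytochrome oxidase and ATP synthase. Synaptic vesicle genes had a median at percentile 83.8, and Syt1, the calcium sensor of vesicle release, stood at 5.65, 5.83 and 5.67. The lens list, of a tissue next to the retina, had a median at percentile 91.7 and 11 of 26 genes among the brightest 5%.

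**Figure D2:**
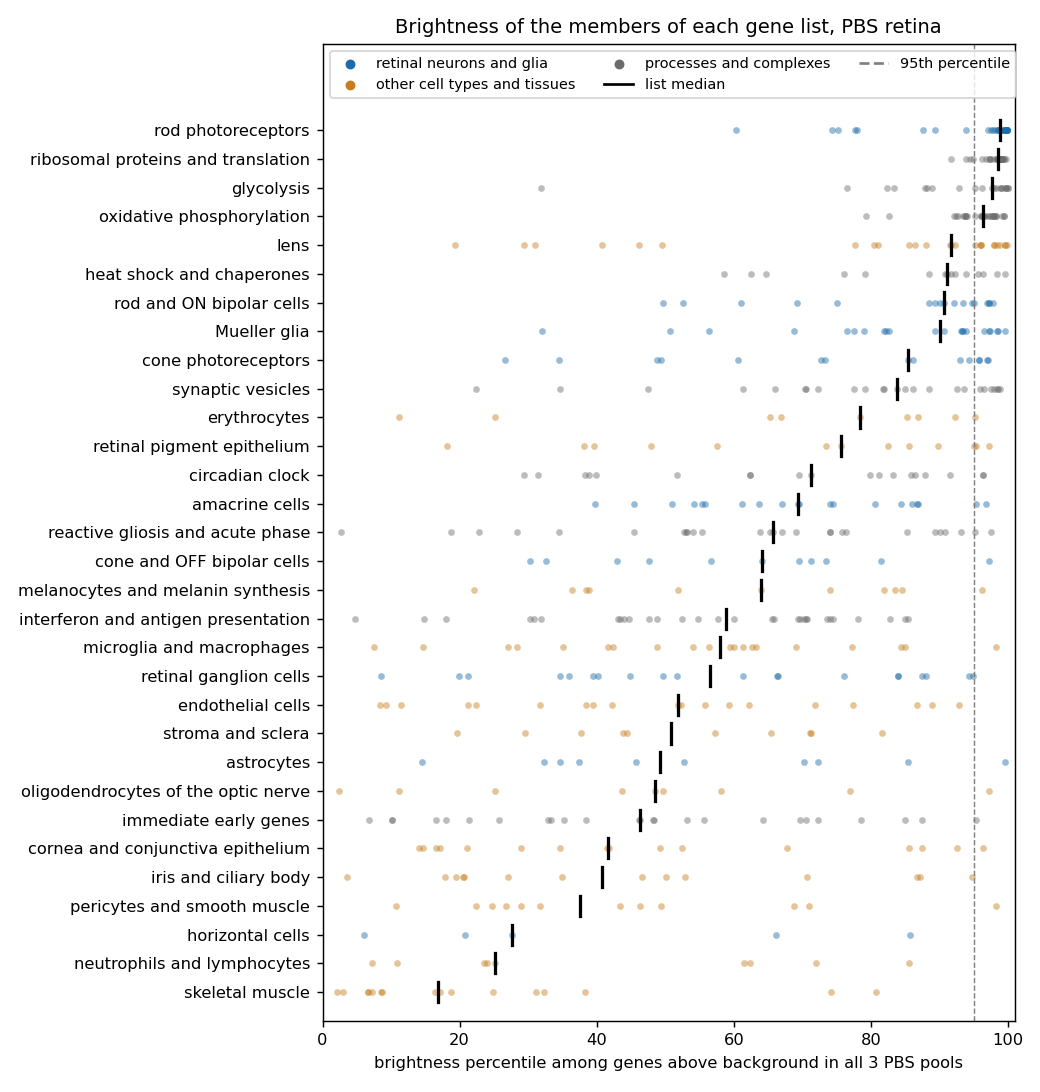
Brightness percentile among the 23634 genes well above background in all 3 PBS pools (x axis) for the members of each gene list (y axis). Points are genes, black bars the list medians and the dashed line the 95th percentile. Rod, ribosomal, glycolytic and oxidative phosphorylation lists have medians right of the dashed line.

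Most genes varied little between the pools. The median SD over the 3 pools was 0.098 on the log2 scale, and the median difference between the highest and lowest pool was 0.19, or 1.14-fold. For 315 probes printed as 10 spots and well above background, the median SD of single repeat spots within an array was 0.057, 0.056 and 0.058, and the median SD of the same probes' 10-spot averages between pools was 0.096. Repeat spots share 1 labelling and hybridisation, so their SD leaves out differences that arise between arrays at these steps.

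The highest and lowest pool were over 2-fold apart in 907 of 23634 genes (3.84%). PBS 1 was the highest pool in 646 of them (2.73% of genes tested), PBS 2 in 133 (0.563%) and PBS 3 in 128 (0.542%), and PBS 2 was the lowest in 629 (2.66%). The largest class, with 525 genes, was highest in PBS 1 and lowest in PBS 2. Without PBS 1 the count fell to 405 genes and without PBS 2 to 470, while it was 781 without PBS 3. Dim genes were over 2-fold apart more often: with the genes split by brightness into 4 equal parts, the share was 7.80% in the dimmest and 1.08% in the brightest. With normexp background correction, which models the background and adds an offset of 50, 467 genes were over 2-fold apart. The 907 genes of the main scaling had 121 further probes that were well above background in all 3 pools. Of these probes, 93 had the same highest and lowest pool as the brightest probe. Over 2-fold apart themselves were 85, and 74 met both conditions.

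Few genes of retinal neurons were over 2-fold apart. Of 117 genes on the photoreceptor, bipolar, horizontal, amacrine and ganglion cell lists, 1 was over 2-fold apart, which is 0.855%, against 3.84% of all genes and 1.08% of the brightest of the 4 parts. Their median range, 0.24, was above the 0.19 of all genes. The gene over 2-fold was Opn1sw, with its highest pool 2.42-fold above its lowest. The next largest range, 0.95, was that of Sst, the neuropeptide somatostatin of some amacrine cells, at -1.58, -2.43 and -2.53. None of the genes of ribosomal proteins, oxidative phosphorylation, glycolysis, synaptic vesicles or the circadian clock was over 2-fold apart. Of 25 immediate early genes, which respond within minutes to stimulation or handling, 2 were (Fosl2 and Maff, both highest in PBS 1), and Fos stood at -1.33, -1.37 and -1.37.

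Rod genes showed a small difference that ran the same way in each gene. PBS 1 was the lowest pool in 30 of 30 rod genes, against 42.5% of all genes; with quantile normalisation it was lowest in 27, and with the array median or normexp in 30. The share of all genes with PBS 1 lowest was 61.9% with the array median, 49.0% with quantile normalisation and 53.1% with normexp. Other bright lists ran the same way: PBS 1 was lowest in 28 of 29 genes of oxidative phosphorylation, 22 of 30 of the ribosome and translation, 15 of 21 of glycolysis and 14 of 17 of rod and ON bipolar cells; with quantile normalisation these counts were 22, 13, 12 and 11. Over the list, PBS 1 stood a median of -0.27 below PBS 2, which under quantile normalisation was -0.21. Prom1, a membrane protein of the outer segment discs, stood at 5.39, 5.79 and 5.66. Cngb1, a subunit of the rod's cGMP-gated channel, stood at 6.42, 6.79 and 6.72. Both ranged more than most rod genes: the list's median range was 0.30 and its largest 0.44. The rod list's summed level was 10.93, 11.20 and 11.15, a range of 0.26. In the same pool the cornea and conjunctiva list's summed level was 6.47, against 5.18 and 5.34 in the others, and the lens list's was 10.43, against 7.43 in PBS 2 and 10.37 in PBS 3. The part of other tissues in the rod difference was not tested. Ganglion cell genes ran otherwise: PBS 2 was lowest in 14 of 20, against 26.3% of all genes. Uchl1, a neuronal deubiquitinase, stood at 1.28, 0.81 and 1.33.

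**Figure D3:**
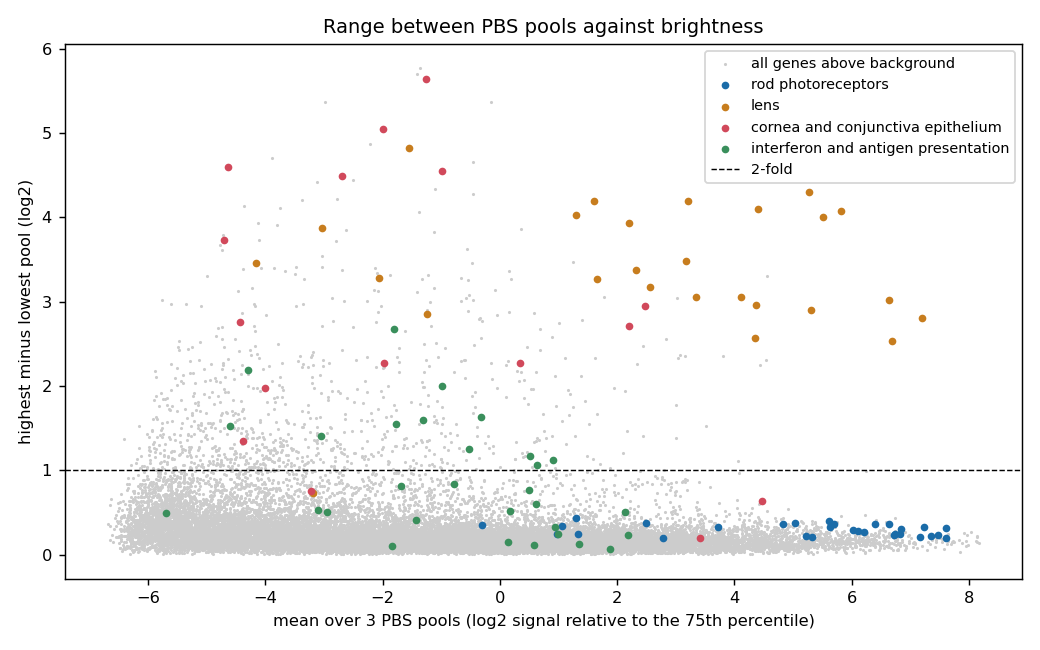
Difference between the highest and lowest PBS pool (y axis, log2) against the mean over the 3 pools (x axis, log2 signal relative to the array's 75th percentile). Grey points are all 23634 genes well above background in all 3 pools, coloured points the members of 4 lists, and the dashed line marks 2-fold. Rod genes lie below 0.45, and lens genes lie at 2.54 or above over the whole brightness range except Hsf4 at 0.72.

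Lens genes were the most variable list. Of 26 lens genes measured, 25 were over 2-fold apart, against 3.84% of all genes. PBS 2 was the lowest pool in all 26, against 26.3% of all genes. Cryba1, a beta crystallin of the lens fibres, stood at 6.92, 2.62 and 6.29, a 19.7-fold range. Mip, the water channel of lens fibres, stood at 3.32, -0.87 and 2.34, and the beaded filament gene Bfsp2 at 3.48, 0.10 and 3.40. In the crystallins named here, PBS 1 and PBS 3 lay nearer to each other than to PBS 2, which was well under both. PBS 1 and PBS 3 were still 0.99 apart in Crygn. Over the list, PBS 1 was a median of 3.27 and PBS 3 a median of 3.13 above PBS 2. Without PBS 2, 3 of the 26 genes were over 2-fold apart. PBS 2 was the highest pool in none of the 26 genes, and 25 were over 2-fold apart, in the main scaling and with the array median, quantile normalisation and normexp.

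Within the lens list the families of crystallins differed in which pool was highest. Beta crystallins were highest in PBS 1: Crybb2 stood at 6.99, 2.99 and 6.56 and Crybb3 at 4.78, 0.58 and 4.28. Most gamma crystallins, which are known from the fibre cells of the lens core, were highest in PBS 3: Crygb stood at 4.72, 2.27 and 5.33, Crygc at 7.15, 5.19 and 7.73, and Crygf at 3.70, 1.64 and 4.70. Genes of this family are similar in sequence, and their probes may share signal. Crygn, a gamma crystallin also known from retina, had the largest range of the list at 0.38, -4.44 and -0.61. Cryab, a small heat shock protein, stood at 7.46, 3.38 and 6.63. The member with the smallest range was the transcription factor Hsf4, at -2.90, -3.63 and -3.03.

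Genes of the corneal and conjunctival epithelium were high in PBS 1. Of 16 measured, 13 were over 2-fold apart and 12 of these had PBS 1 as the highest pool, against 2.73% of all genes. Krt12, the keratin of the corneal epithelium, had the largest range of all named genes, 5.64 on the log2 scale, at 2.20, -3.45 and -2.53. Krt5 (1.99, -2.56 and -2.38) and Krt15 (1.35, -3.66 and -3.69), keratins of basal epithelial cells, and Aldh3a1, an abundant enzyme of the cornea (4.37, 1.42 and 1.64), ran the same way. PBS 2 and PBS 3 were within 2-fold of each other in these 4 genes and PBS 1 was well above both. Without PBS 1, 2 of the 16 genes were over 2-fold apart, and without PBS 2 12 were. Sprr1a, a gene of the cornified envelope that is also known from injured neurons, went the other way, with PBS 2 highest at -2.92, -0.65 and -2.36. Trp63, a transcription factor of epithelial stem cells, was bright and steady at 3.36, 3.53 and 3.33.

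Other genes of the eye's wall and front ran partly with the epithelial genes. Of 10 genes of stroma and sclera 8 were over 2-fold apart, 6 of them highest in PBS 1, against 3.84% and 2.73% of all genes, and without PBS 1 the count was 5. Col1a2, a chain of collagen I, stood at 1.92, -0.50 and 0.62, and Ogn, a small proteoglycan, at 0.69, -2.35 and -0.05. Dcn, the proteoglycan decorin, was high in PBS 1 and PBS 2 and lower in PBS 3, at 2.07, 2.07 and 1.00. Of 14 genes of iris and ciliary body 5 were, and Zic1, a zinc finger transcription factor, stood at 1.09, -0.29 and 1.08. Of 16 muscle genes 1 was (Casq1, at -4.50, -6.66 and -4.72), a share near that of all genes, and no pigment epithelium gene was. Melanin genes stayed within 2-fold and were lowest in PBS 3 in 10 of 11, against 31.2% of all genes. Dct, an enzyme of melanin synthesis, stood at 4.77, 4.35 and 4.17.

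Of the 30 named genes with the largest ranges, 10 were on the lens list and 5 on the cornea and conjunctiva list. PBS 1 was the highest pool in all 30 and PBS 2 the lowest in 26. Among all 907 genes over 2-fold apart, PBS 1 was highest in 646 and PBS 2 lowest in 629. The ranges ran from 5.64 down to 3.86, with the next gene at 3.83. Glycam1, a secreted mucin-like protein, stood at -0.74, -6.11 and -2.09, and Nid1, a basement membrane protein, at 2.30, -3.06 and 0.29. The further probes of Nid1 had the same highest and lowest pool. Muc4, a membrane mucin of wet epithelia (0.99, -3.75 and -3.88), Slurp1, a secreted epithelial protein (0.26, -4.18 and -3.61), and Cdh1, the epithelial cadherin (-1.94, -5.88 and -4.59), were also among them.

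**Figure D4:**
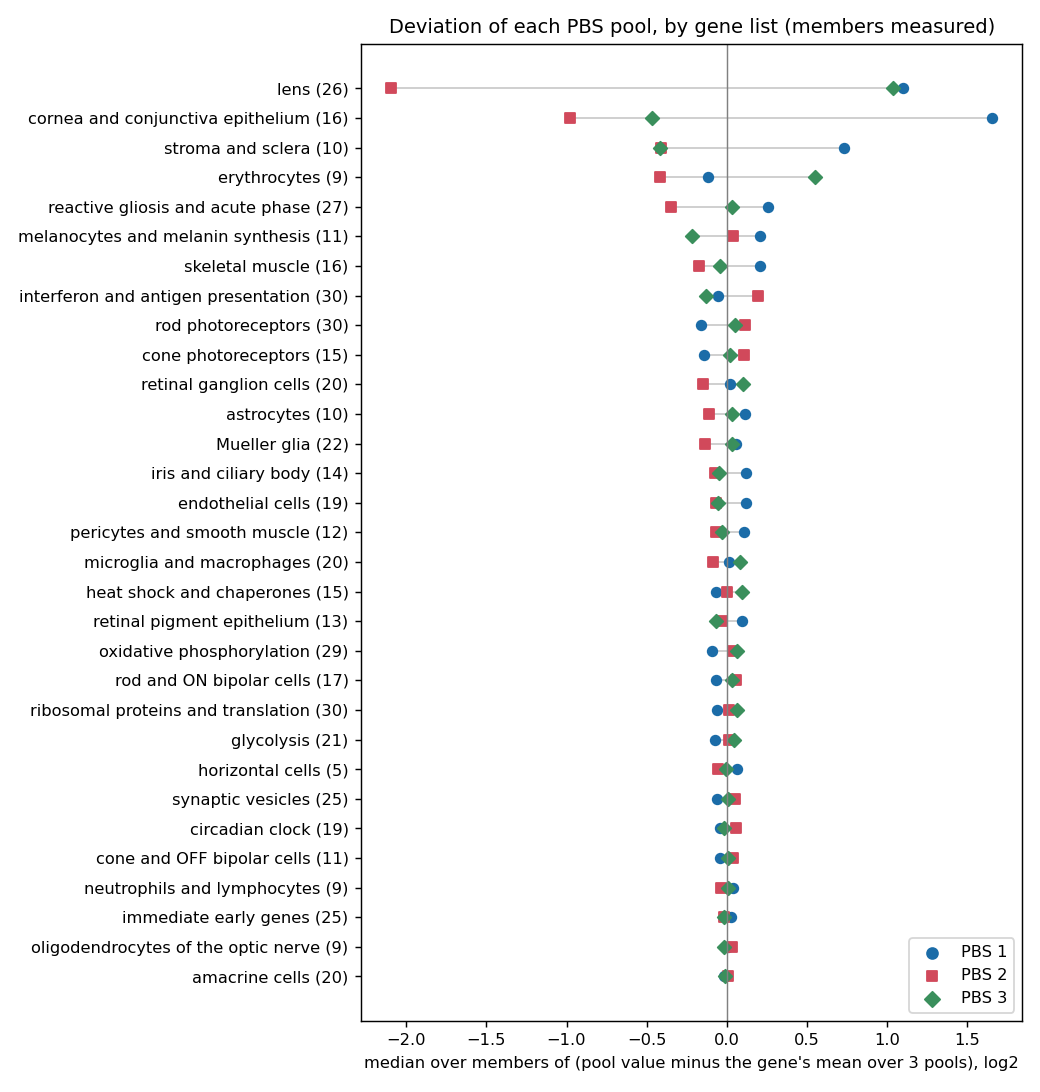
Median over the members of each gene list of a pool's value minus the gene's mean over the 3 PBS pools (x axis, log2). Lists are ordered by the spread of the 3 medians, with the number of genes measured in brackets (y axis). The lens list has PBS 2 at -2.09 and the other pools near 1, and the cornea and conjunctiva list has PBS 1 at 1.66 with the others below 0.

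Mueller glia and gliosis lists held members that were lowest in the same pool as the lens genes. Of 22 Mueller glia genes 4 were over 2-fold apart, and PBS 2 was the lowest pool in each, against 3.84% of all genes over 2-fold apart and 2.66% over 2-fold apart with PBS 2 lowest. Vim, the intermediate filament vimentin, stood at 4.36, 2.84 and 3.38, Aldh1a1, a retinal dehydrogenase, at 3.85, 2.07 and 3.11, and Slc6a13, a GABA transporter, at 1.56, 0.17 and 1.83. Glul, Rlbp1, the retinaldehyde carrier of Mueller glia (3.56, 3.72 and 3.53), Slc1a3, their glutamate transporter, and Aqp4 stayed within 0.20. Of 27 genes of gliosis and the acute phase 11 were over 2-fold apart, 8 of them highest in PBS 1 (2.73% of all genes) and 8 lowest in PBS 2. C3, the central complement protein, stood at 1.70, -0.76 and 0.44, and Serpina3n, a protease inhibitor of reactive glia, at 0.19, -2.26 and -0.72. Without PBS 2 the counts were 0 of 22 and 2 of 27, and without PBS 1 they were 2 and 3. Lens and cornea genes differed between the same pools, as given above, and their part in these values was not tested.

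The other members of the gliosis and acute phase list included 2 that were over 2-fold apart and highest in PBS 2, against 0.563% of all genes. They were Edn2, an endothelin known to be made by stressed photoreceptors, at 0.42, 1.72 and 1.24, and Fgf2, a growth factor known to protect photoreceptors, at -3.79, -2.79 and -3.29. The metallothioneins Mt1 (4.99, 5.03 and 5.05) and Mt2 (4.06, 4.06 and 4.11) were bright and steady. Of the chaperones, Hspb1, a small heat shock protein, stood at 3.58, 1.61 and 3.94, and Hmox1, the heme oxygenase, at 0.08, -0.86 and 0.42. These 2 of 15 chaperone genes were over 2-fold apart, against 3.84% of all genes. Hspa8, the constitutive heat shock protein, stood at 6.52, 6.65 and 6.76.

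Several interferon-stimulated genes were highest in PBS 2. Of 30 genes of the interferon response and antigen presentation 12 were over 2-fold apart, against 3.84% of all genes. In 8 of these PBS 2 was the highest pool, against 0.563% of all genes: Ifit1, Ifit3, Isg15, Oasl2, Gbp3, Cxcl10, Rsad2 and Ifi44. Isg15, a ubiquitin-like modifier, stood at 0.19, 1.27 and 0.09, Ifit3, an antiviral protein, at 0.73, 1.56 and 0.43, and the chemokine Cxcl10 at -1.40, -0.67 and -3.35. PBS 2 was the highest pool in 20 of the 30 genes, also with the array median and with quantile normalisation, and in 21 with normexp. Over all genes PBS 2 was highest in 40.2%, and in 45.1%, 45.2% and 41.6% under these alternatives. Stat2, Irf9 and Irf7, which carry the interferon signal, were within 2-fold, with Irf9 at 0.50, 0.97 and 0.37 and Irf7 at -3.34, -2.81 and -3.18. Without PBS 2, 2 of the 30 genes were over 2-fold apart, without PBS 3 7 were and without PBS 1 11 were. PBS 2 was the lowest pool in 4 of the 12 genes, so the fall without PBS 2 is not that of the 8 genes alone. PBS 2 was also the pool with the lowest lens level (7.43, against 10.43 and 10.37), and the part of this in the interferon values was not tested.

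Interferon-stimulated genes are known to carry an element through which interferon acts on them, and GAAANNGAA is contained in it. This motif was searched on both strands, with overlapping matches counted. It was found in 12 of 28 promoters of 25 matched genes of the list (42.9%), in 22.0% of 59 promoters of the named genes that were over 2-fold apart and highest in PBS 2, and in 7.13% of all promoters. Both sets share genes. The 160 bases before the starts of Isg15, Ifit1 and Ifit3 are shown because these genes were highest together in PBS 2, with matches in capitals. They are RefSeq sequences of GRCm38.p6, 5′ to 3′ along the gene, at chr4:156200819-156200978 on the minus strand for Isg15, chr19:34640729-34640888 on the plus strand for Ifit1 and chr19:34583369-34583528 on the plus strand for Ifit3.
Isg15: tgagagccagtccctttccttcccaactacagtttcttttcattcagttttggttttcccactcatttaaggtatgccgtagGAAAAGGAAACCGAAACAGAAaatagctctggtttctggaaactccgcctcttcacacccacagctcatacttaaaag
Ifit1: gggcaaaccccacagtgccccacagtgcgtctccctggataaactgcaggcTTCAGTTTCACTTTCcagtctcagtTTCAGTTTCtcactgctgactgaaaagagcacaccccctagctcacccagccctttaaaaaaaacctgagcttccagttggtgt
Ifit3: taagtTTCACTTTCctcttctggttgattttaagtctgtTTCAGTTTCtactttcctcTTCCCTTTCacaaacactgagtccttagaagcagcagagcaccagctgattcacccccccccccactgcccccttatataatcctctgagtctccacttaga

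Genes of MHC class II, which present antigen on macrophages and dendritic cells, ran opposite to the interferon-stimulated genes. All 4 on the list were over 2-fold apart, highest in PBS 1 and lowest in PBS 2, a pattern of 525 of all 23634 genes. H2-Aa stood at -3.50, -5.69 and -3.72, H2-Eb1 at -0.08, -2.08 and -0.80, and H2-Ab1 at 0.42, -1.21 and -0.19; the fourth was Cd74, the invariant chain. Class I genes were steady, with H2-K1 at 1.90, 1.84 and 1.88 and B2m, their light chain, at 2.13, 2.33 and 2.10. On the microglia and macrophage list 3 of 20 genes were over 2-fold apart, against 3.84% of all genes. Each was highest in PBS 1, against 2.73% of all genes over 2-fold apart with PBS 1 highest. They were Cd74, Lyz2, a lysozyme of phagocytes (-1.48, -2.91 and -1.54), and Mrc1, the mannose receptor of macrophages (-3.71, -6.03 and -4.17). Genes that mark microglia differed little, with Cx3cr1 within 0.08, Tmem119 at -2.58, -2.66 and -2.71 and P2ry12 at -3.33, -3.14 and -3.40. The epithelial and stromal lists were also highest in PBS 1, and their part in the class II values was not tested.

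**Figure D5:**
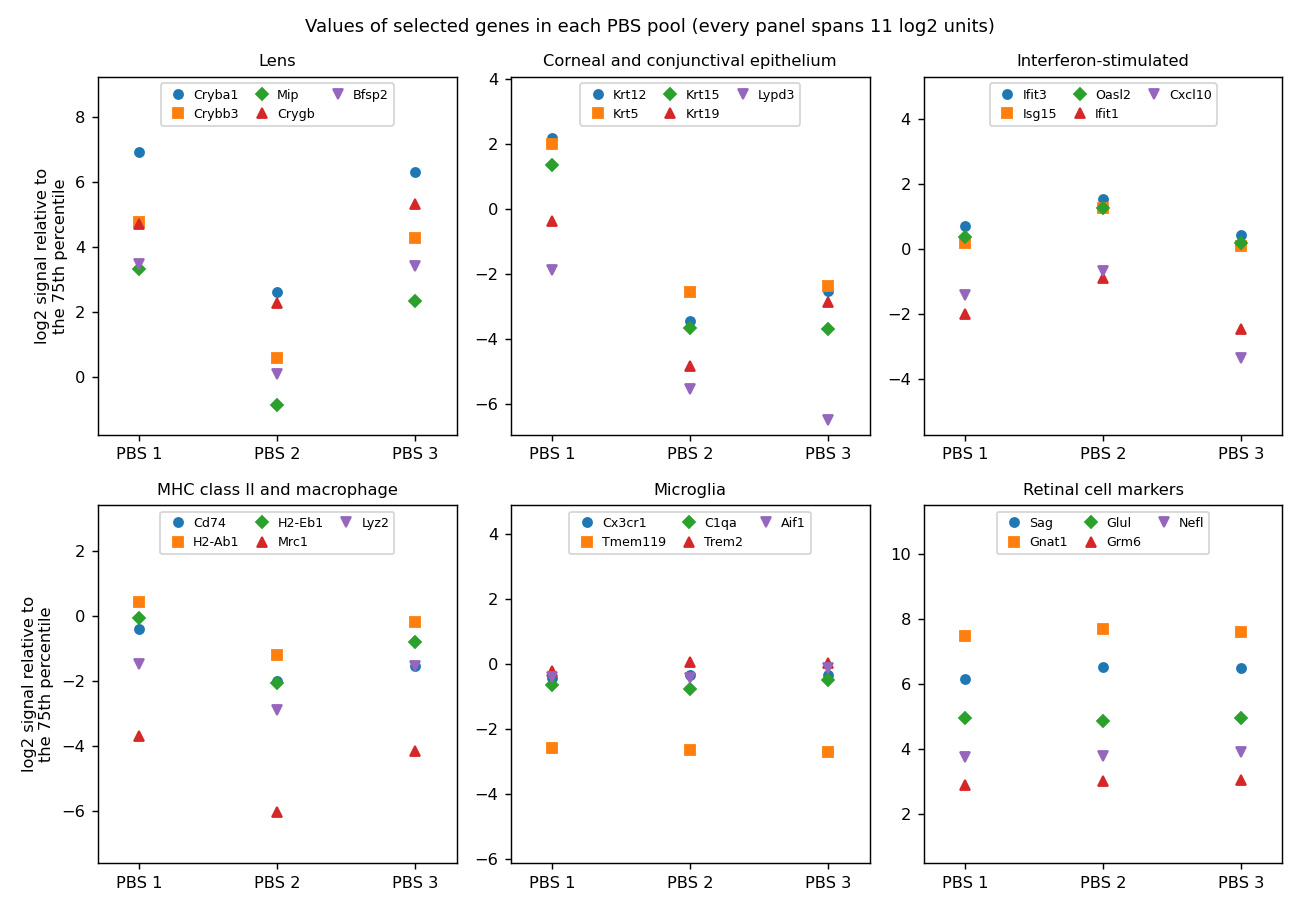
Values of 30 genes in PBS 1, PBS 2 and PBS 3 (x axis), in log2 signal relative to the array's 75th percentile (y axis), in 6 panels that each span 11 units. Each point is 1 pool. Lens genes are low in PBS 2, corneal genes high in PBS 1 and interferon-stimulated genes high in PBS 2, while the microglial and retinal markers are level.

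Erythrocyte genes were mostly highest in PBS 3. Of 9 erythrocyte genes measured, 7 had PBS 3 as the highest pool, against 28.5% of all genes. The 3 that were over 2-fold apart were all highest in PBS 3, against 0.542% of all genes. Among these 3, the globin gene Hbb-bt stood at 1.92, 1.56 and 3.02. Alas2, the first enzyme of heme synthesis in erythroid cells, stood at -3.76, -4.09 and -2.98. The globin gene Hba-a2, at 3.96, 3.67 and 4.63, was also highest in PBS 3 but stayed within 2-fold. Globin genes are similar in sequence and their probes may share signal. Without PBS 3 none of the 9 genes was over 2-fold apart. S100a8, a calcium-binding protein of neutrophils, was also highest in PBS 3 at -5.46, -5.94 and -3.74, while its partner S100a9 stood at -3.38, -4.50 and -3.42. Of 16 neutrophil and lymphocyte genes, 9 were well above background in all 3 pools, 4 in some and 3 in none. Of the 9, 2 were over 2-fold apart, against 3.84% of all genes. PBS 1 was the highest pool in 5 of the 9, against 31.3% of all genes. Ltf, Retnlg and Ms4a1 were well above background in PBS 1 only. Cd8a, Cd3g and Ngp, markers of T cells and neutrophils, were not well above background in any pool.

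Genes well above background in a single pool were most numerous in PBS 1, with 970, against 251 in PBS 2 and 161 in PBS 3. PBS 1 also had the largest share of spots above background. For these a fold is a lower bound, taken against the mean, over the other pools, of whichever is higher of the lowest signal called above background and the signal of the probe itself. Against a single other pool the bound can be smaller. Retnla, a resistin-like secreted protein, was at least 28.7-fold higher in PBS 1 than this mean over the others. Upk1b, a uroplakin of stratified epithelia, was at least 15.5-fold and Serpinb5, an epithelial serpin, at least 15.4-fold higher in PBS 1. Klra7, a receptor of natural killer cells, was at least 19.6-fold higher in PBS 3. No rod, cone or ganglion cell gene on the lists was among the genes detected in a single pool; of the horizontal cell list, Ptf1a was, in PBS 2.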

How the data were processed

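The 3 PBS retina arrays were 1-colour (Cy3) Agilent arrays of design 026655. Per the file headers, the scanner software was Agilent Feature Extraction 11.0.1.1 (protocol GE1_1100_Jul11), and the design's annotation used the mouse build mm9. The deposited scanner files give the processed signal, an intensity on a linear scale, background-subtracted within the array and not normalised between arrays. The deposited value table held the same intensity: in each array 99.8% of its values matched the probe's spot mean (relative tolerance 0.0001), so its scale was settled, and its medians were 298.3, 256.4 and 231.9. Whether the authors tested the groups, and how, is not stated in what was used here.

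Control spots and outlier spots (103, 122 and 110) were left out, log2 was taken, the array's 75th percentile was subtracted (2349, 2143 and 1937 before log2), and spots of a probe were averaged. This gave 39405 probes, of which 26035 were named by transcript accession, without versions, through a RefSeq gene table of assembly GRCm38.p6 (19741 symbols). The other 13370 kept their accession. A gene was represented by its brightest probe. Only genes well above background on all 3 arrays were ranked.

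Named were the 30 brightest genes, the 30 with the largest range, the 4 brightest members and the 2 of largest range in each of 32 lists, and the 5 markers, among genes with a symbol that is not a placeholder. Other list members, Sprr1a and the genes detected in a single pool were named after their values were seen. The arrays, the lists and the rules were chosen with earlier results of these data known. A few list members are counted but not reported here by name. No test between samples was run, and nothing shows that the pools came from separate experiments. Alternatives were the array median, quantile normalisation, normexp (offset 50, limma 3.58.1 in R 4.3.3), other filters and probe rules, outliers kept, the value table and each pool left out. Because the files give no mean signal column, normexp used the median signal. Python 3.11.15 and pandas 2.3.3 were used.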

Additional observations from a re-analysis of the deposited data

How the results depend on the processing

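The count of genes over 2-fold apart was 907. It was 847 with the array median, 853 with quantile normalisation, 901 with the mean of probes, 917 with outlier spots kept and 903 from the deposited value table. It was 467 with normexp, 3331 with no filter on dim probes, 2086 with genes above background on at least 1 array and 2112 at a threshold of 1.5-fold. Leaving out 1 pool gave 405 to 781, with fewer pools to range over. The median SD was 0.098, and it was 0.122 with the array median, 0.131 with no filter and 0.0706 to 0.0914 with a pool left out. Rod genes made up 8 of the 50 brightest, 6 with normexp, 11 with the mean of probes (26 of the 50 genes shared), 7 to 10 with a pool left out and 14 of the 100 brightest. List counts among the brightest 5% moved by more than 1.5 times in 11 of 64 recomputed: with the mean of probes OFF bipolar 0, amacrine 1, ganglion 2, oligodendrocyte 0, microglia 0 and iris 1, and with normexp amacrine 1, ganglion 1, pigment epithelium 1, erythrocyte 0 and gliosis 1. The cause was not tested. Of 704 ranges recomputed over 64 named genes, 105 moved by more than the spread between pools. Counts of list members without each pool were chosen after seeing the data. No paired analysis was possible because only 1 group was described and no test was run.

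Signal over background limits dim genes: 2145 genes were above background in some pools only. Values hold for 3 pools on 1 slide, so slide-to-slide differences were not measured here.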
